A study of Populus tremula x Populus alba with 2 samples.

Results

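The transcripts of 9 genes that encode the middle steps of monolignol biosynthesis were examined in stems of hybrid aspen (Populus tremula x Populus alba). The genes are hydroxycinnamoyl-CoA shikimate hydroxycinnamoyl transferase (HCT1 and HCT6), p-coumaroyl shikimate hydroxylase (C3H3), caffeoyl shikimate esterase (CSE1 and CSE2), caffeoyl-CoA O-methyltransferase (CCoAOMT1, CCoAOMT2 and CCoAOMT3) and cinnamoyl-CoA reductase (CCR2). They were taken by identifier, but chosen with earlier results of these data known. They are 9 of the 41335 poplar genes in the deposited table, which gives identifiers without names. The enzyme names came with the list of identifiers and were not checked against an annotation here.

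The MOMT4 group was transgenic line MOMT4-0, which expressed an engineered monolignol 4-O-methyltransferase from the bean PAL2 promoter, and the WT group was the control. MOMT4 caps the phenolic hydroxyl of finished monolignols, so it acts downstream of all 9 enzymes. Plants of both groups were coppiced and grown in a greenhouse for about 2 months, and internodes 1 to 15 were taken without bark. Each group gave 1 library from about 100 mg of stem pooled from 2 to 3 plants, so there is no replicate error, MOMT4-0 stands for a single transgenic line, and no p value was computed for the difference between the groups.

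Lignin is made by oxidative coupling of monolignols in secondary walls, chiefly in xylem vessels and fibres. In the middle of the pathway, HCT joins p-coumaroyl-CoA to shikimate and C3H hydroxylates the aromatic ring of the ester. CSE, described first in Arabidopsis, releases caffeate from the hydroxylated ester. CCoAOMT adds the methyl group that makes feruloyl-CoA, and CCR reduces the CoA ester to the aldehyde from which monolignols are formed.

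Levels are in RPKM, read counts scaled by exon length and by the mapped reads of the library, which are per length and so can be set beside each other between genes. The column headings were followed for the groups, because the sample descriptions give the short codes of the 2 libraries the other way round. The table's single row outside the poplar annotation was read as the transgene and stood at 1222 RPKM in MOMT4-0 and 4.79 RPKM in WT. The spacing of low values gave scaling totals near 9460000 reads for MOMT4-0 and 8750000 reads for WT. A list of 5 secondary wall cellulose synthase identifiers, written from general knowledge and not annotated by the table, lay at 34.3 to 304.8 RPKM in MOMT4-0 and 35.9 to 317.6 RPKM in WT, so these xylem markers were abundant in both pools. Markers of green tissue and phloem were not analysed here.

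All 9 genes were expressed in both libraries. CCoAOMT1 and CCoAOMT2, the most abundant, each exceeded 377 RPKM, and CSE2 and HCT6 were the least abundant. None of the 9 was at least 2-fold apart between MOMT4-0 and WT. The deposited values of all 9 were lower in MOMT4-0, by 0.163% for CCoAOMT1 to 24.5% for CSE2, but CCoAOMT1 and CCoAOMT3 turned to slightly higher in MOMT4-0 when the values were rescaled to a common sum over poplar genes, which left 7 of 9 lower.

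A log2 ratio of MOMT4-0 over WT was taken after adding 1 RPKM to both values, and the comparison was with the genes that averaged 1 RPKM or more in the 2 libraries. In these genes 1.77% were at least 2-fold apart in either direction, against 0 of the 9. Such gaps were rarer at the levels of the 9. Of the 6707 genes at or above the mean RPKM of the least abundant of the 9, 14 were at least 2-fold lower in MOMT4-0 and 23 at least 2-fold higher. The share of genes with a ratio below 0 was 50.9% over all genes compared and 52.5% over these 6707 genes, against 9 of 9. After rescaling it was 47.9% over all genes, against 7 of 9. The median log2 ratio was -0.15 over the 9 genes and -0.0057 over all 22944 genes. In debarked stems, fewer lignifying cells and less of each transcript per cell cannot be told apart.

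**Figure D1:**
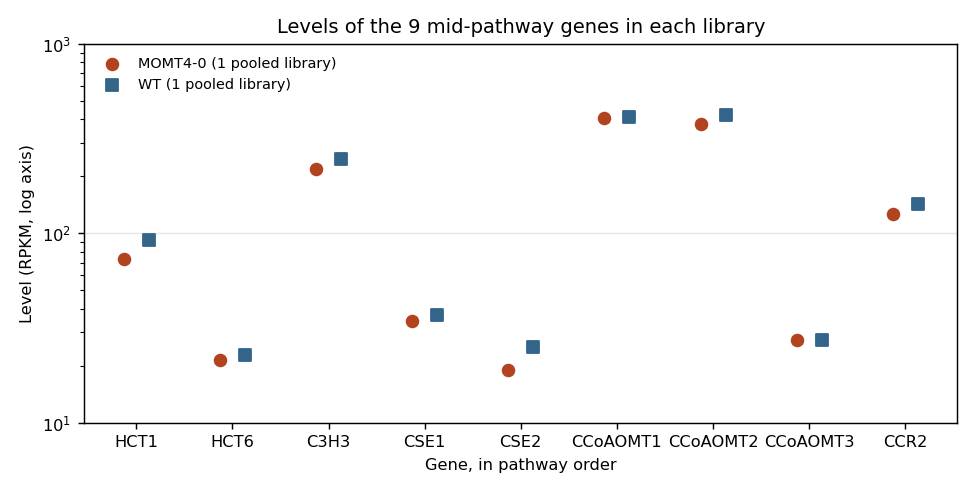
RPKM of each of the 9 genes (log axis), with the MOMT4-0 library as circles and the WT library as squares, 1 pooled library each and therefore no error bars. The levels run from 18.9 RPKM for CSE2 in MOMT4-0 to 419.2 RPKM for CCoAOMT2 in WT, and the circle of each gene is at or below its square.

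HCT1 (Potri.003G183900), the more abundant of the HCT genes, had 73.7 RPKM in MOMT4-0 and 92.8 RPKM in WT, a log2 ratio of -0.33. It lies on chromosome 3 from 19015508 to 19020338 (the table's coordinates with 1 added to the start; their genome build is not given in the sources used here). HCT6 (Potri.001G042900; chromosome 1, 3107035 to 3112488) had 21.5 RPKM in MOMT4-0 and 22.7 RPKM in WT, a log2 ratio of -0.07. The summed HCT level was 95.2 RPKM in MOMT4-0 and 115.5 RPKM in WT, and of the 20.2 RPKM by which it was lower, HCT1 accounted for 19.1 RPKM. HCT1 made up 77.4% of the pair in MOMT4-0 and 80.3% in WT, a difference of -2.96 percentage points. The 95% counting interval was about 1.68 points on either side if each gene had the most reads its span allows, and wider with fewer. As for the families below, this interval was computed as if the genes of a family were equally long, so it is approximate. Variation between plants is not in it.

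C3H3 (Potri.006G033300), the cytochrome P450 of the pathway's middle, had 219.5 RPKM in MOMT4-0 and 248.1 RPKM in WT, a log2 ratio of -0.18. Its listed position on chromosome 6, from 2227423 to 2232687, overlaps that of Potri.006G033200, which had 80.0 RPKM in MOMT4-0 and 78.4 RPKM in WT. The listed position of HCT6 likewise overlaps that of Potri.001G042800, at 1.25 RPKM in MOMT4-0 and 1.01 RPKM in WT. Reads of overlapping genes may have been divided between the rows. The paper states that the libraries were strand-specific, but whether the counting used strand is not given. The other 7 genes were alone at their positions, with a median log2 ratio of -0.15.

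The CSE genes were the least abundant family, and their log2 ratios were 0.28 apart, against 0.26 for the HCT genes. CSE1 (Potri.003G059200; chromosome 3, 8692451 to 8695488) had 34.3 RPKM in MOMT4-0 and 36.9 RPKM in WT, a log2 ratio of -0.10. CSE2 (Potri.001G175000; chromosome 1, 14846705 to 14848920) had 18.89 RPKM in MOMT4-0 and 25.02 RPKM in WT, a log2 ratio of -0.39, the lowest of the 9. CSE1 was therefore 1.81-fold above CSE2 in MOMT4-0 and 1.47-fold above it in WT, and its share of the pair was 64.5% in MOMT4-0 and 59.6% in WT, a difference of 4.88 percentage points with a counting interval of at least 3.71 points on either side.

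The CCoAOMT genes, which carry out the methylation at the caffeoyl-CoA stage, together reached 813.5 RPKM in MOMT4-0 and 856.4 RPKM in WT, the highest of the 5 families. CCoAOMT1 (Potri.009G099800; chromosome 9, 8863870 to 8865909) had 409.1 RPKM in MOMT4-0 and 409.8 RPKM in WT, a log2 ratio of -0.0023. CCoAOMT2 (Potri.001G304800; chromosome 1, 30772404 to 30774048) had 377.1 RPKM in MOMT4-0 and 419.2 RPKM in WT, a log2 ratio of -0.15. The 2 abundant genes took nearly equal shares, with CCoAOMT1 making up 50.3% of the family in MOMT4-0 and 47.8% in WT, and CCoAOMT2 46.4% in MOMT4-0 and 48.9% in WT. The CCoAOMT1 share differed by 2.44 percentage points, with a counting interval of at least 1.24 points on either side. CCoAOMT3 (Potri.008G136600; chromosome 8, 9102855 to 9105139) was a minor member, with 27.3 RPKM in MOMT4-0 and 27.5 RPKM in WT, or 3.35% of the family in MOMT4-0 and 3.21% in WT.

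CCR2 (Potri.003G181400), which catalyses the first step committed to monolignols, had 126.1 RPKM in MOMT4-0 and 142.6 RPKM in WT, a log2 ratio of -0.18. It lies on chromosome 3 from 18841741 to 18844704, 170.8 kb from HCT1 with 24 rows between them. Around HCT1 and CCR2 the 20 nearest expressed neighbours, 10 on either side, had median log2 ratios of -0.02 and -0.0067, and around all 9 genes these medians ranged from -0.08 to 0.03.

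**Figure D2:**
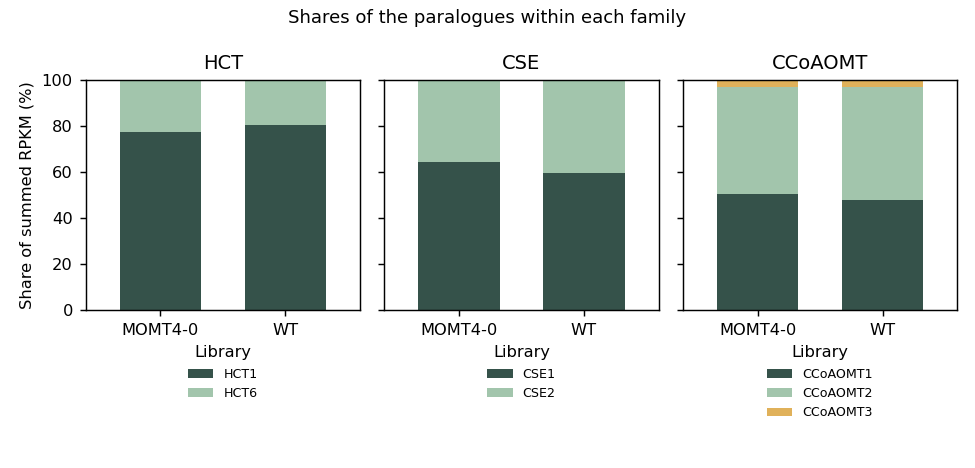
Share of each family's summed RPKM (percent, vertical axis) taken by each of its genes, for HCT, CSE and CCoAOMT, with the MOMT4-0 library on the left and the WT library on the right of each panel. The CSE1 segment is taller in MOMT4-0 (64.5%) than in WT (59.6%), and no HCT or CCoAOMT segment differs by more than 2.96 percentage points.

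The order of the levels was nearly the same in both libraries. In MOMT4-0 it ran CCoAOMT1, CCoAOMT2, C3H3, CCR2, HCT1, CSE1, CCoAOMT3, HCT6 and CSE2. In WT the first 2 genes changed places, and so did the last 2. Exon lengths were not given, so the reads behind a value could only be bounded from above, by the listed span less the 214.5 bases that the low values showed to be taken off in counting. These bounds ran from 358 reads for CSE2 to 10488 for C3H3 in MOMT4-0, and from 438 to 10964 for the same genes in WT. Even at these bounds, WT neighbours CCoAOMT2 and CCoAOMT1 were only 1.23 counting standard errors apart, CCoAOMT3 and CSE2 1.43, and CSE2 and HCT6 1.71, so their order in WT was not resolved. HCT6 and CSE2 were at most 2.15 of these errors apart in MOMT4-0, so whether they changed places is not settled.

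The same bounds give the smallest counting error that each log2 ratio can have; the true error is larger, and variation between plants is not in it. It was 0.10 on the log2 scale for CSE2, 0.03 for HCT1, 0.02 for CCoAOMT1 and 0.09 for CCoAOMT3. Without a pseudocount, the ratios of CCoAOMT1 and CCoAOMT3 were 0.09 and 0.13 of this error from 0, and those of HCT6 and CSE1 were 1.21 and 1.57 of it, so no difference was detectable at this depth for these 4 genes. The other 5 lay 3.94 (CSE2) to 9.58 (HCT1) of these smallest errors below 0, which compares 2 libraries and not the lines.

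The spread among genes of like abundance was wider than that. For each of the 9, the 500 poplar genes nearest in mean RPKM were taken, and the share of them with a lower log2 ratio was read off as a description. For HCT1 this share was 5.0%, within a central 95% of -0.45 to 0.48 for its 500 genes, and for CSE2 it was 5.4%, within -0.45 to 0.49. C3H3 stood at 13.4%, CCR2 at 16.8% and CCoAOMT2 at 18.2%. CSE1 stood at 32.4% and 210 of the 500 genes were below HCT6, while CCoAOMT1 and CCoAOMT3 were in the middle at 50.4% and 50.2%. Thus 5 of the 9 were below the central 50% of genes of like abundance, and 0 of the 9 lay outside the central 95%. By definition these ranges hold 50% and 95% of the like genes, with the rest split evenly below and above. Few of any 9 genes would therefore lie outside the central 95%. For the most abundant of the 9 the 500 genes were less alike. Their means ran from 185.0 to 907.3 RPKM for CCoAOMT1 and from 184.0 to 846.8 RPKM for CCoAOMT2, so these 2 sets largely overlap.

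**Figure D3:**
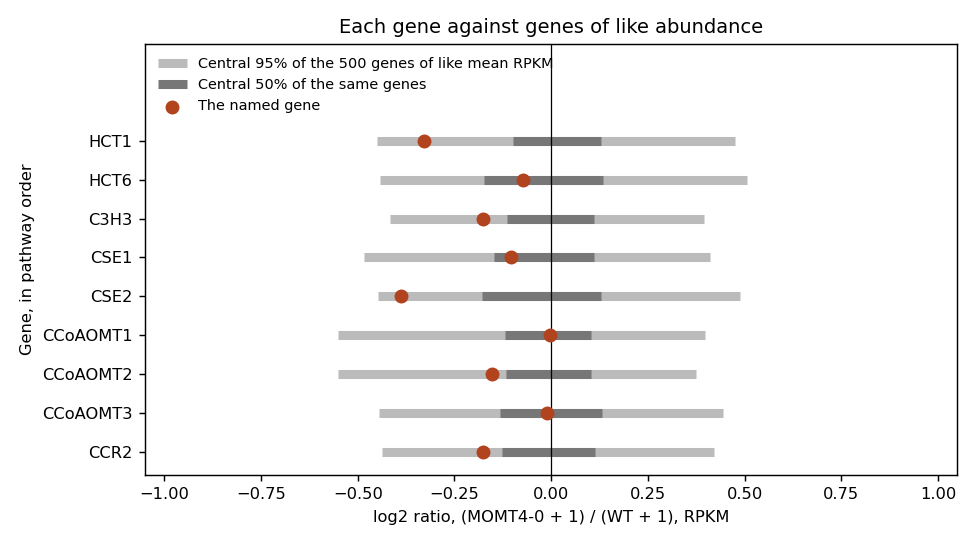
The log2 ratio of MOMT4-0 over WT with 1 RPKM added (horizontal axis) for each gene in pathway order (circles), over the central 95% (light bars) and central 50% (dark bars) of the 500 genes nearest to it in mean RPKM. HCT1 at -0.33 and CSE2 at -0.39 lie near the lower end of their bars, and all 9 circles lie within the light bars.

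Other monolignol genes were followed with a list of 12 identifiers for entry enzymes (PAL, C4H and 4CL) and late enzymes (CAld5H and CAD), again written from general knowledge and not annotated by the table. This list and that of the cellulose synthases were also chosen with earlier results of these data known. In the list of 12, 0 genes were at least 2-fold apart and 10 of 12 were lower in MOMT4-0. The median log2 ratio of the 12 was -0.25, with a range of -0.46 to 0.15. Over all poplar genes that averaged 1 RPKM or more, 1.77% were at least 2-fold apart and 50.9% were lower in MOMT4-0. As deposited, the summed level of the 12 genes in MOMT4-0 was 89.7% of that in WT. That of the 9 mid-pathway genes was 91.8%, and that of all poplar genes averaging 1 RPKM or more was 98.6%. The 5 cellulose synthase identifiers summed to 99.7% of WT, with 2 lower and 3 higher in MOMT4-0. These counts of lower genes, 10 and 2, were the same after rescaling and after centring. No test of a difference between these lists was made.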

How the data were processed

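The authors used TopHat, with 1 mismatch allowed, to place the reads on the PlantGDB copy of the P. trichocarpa genome. Counts per gene were normalized by the authors to RPKM, in reads per length of exon model and mapped reads, and the 2 libraries were run through Cuffdiff. Program versions and the genome build are not given in the sources used here. The log2 ratio, test score, p value and q value columns in the authors' deposited table hold their own comparison and were not used. Aspen reads were aligned to another poplar species, which can shift levels between genes. Paralogues may also share reads, which can shift levels within a family.

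Ratios used a pseudocount of 1 RPKM, which understates changes of low genes, and a filter at an average of 1 RPKM; the 2 rows marked as failed were left out. Scaling totals came from 1007 rows whose values differ only by the worth of a read, 1.08 times as much RPKM in WT as in MOMT4-0; 55 of these rows with a span over 600 bases fixed the total and the length taken off. The steps were tested on simulated data with counting noise only. The changes planted there were larger than any difference among the 9 genes, so differences this small were not tested. The 9 genes were all named by rule, and the members and lists were chosen with earlier results of these data known. Families by annotation were not analysed here, and 1 gene of the list of other monolignol genes is not reported here. Alternatives were pseudocounts, filters, fold limits, centring, rescaling and the number of like genes. Python 3.11.15, pandas 2.3.3, NumPy 2.4.6 and matplotlib 3.10.9 were used.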

Additional observations from a re-analysis of the deposited data

How the results depend on the processing

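The count of 0 genes at least 2-fold apart was the same with a pseudocount of 0.1 RPKM (3.75% of all genes passed), after centring on all genes (1.78%) or rescaling (2.65%), and with a limit of 1.5-fold (7.07%). The share of all genes was 0.855% with a mean of 5 RPKM or more and 1.36% with no filter. The median log2 ratio of the 9 genes ranged from -0.15 to -0.13 over the alternatives. The number of genes lower in MOMT4-0 was 8 after centring on the median of all genes, where CCoAOMT1 turned positive and 50.0% of all genes were lower. It was 7 after rescaling, where 47.9% of all genes were lower, and after centring on genes of like abundance. CCoAOMT1 and CCoAOMT3 turned positive in both, and these ratios stayed within 0.02 of 0. Only the 9 genes were centred on genes of like abundance, so that 7 has no matching share over all genes. With 200 to 1000 like genes, HCT1 had 4.5% to 8.0% of them below it and CSE2 4.6% to 6.5%. HCT1 was at 8.0% with 200. Centring on all genes shifts every gene alike and cannot move these places, and rescaling can hardly move them, so neither is a check on them. Adding 1 RPKM to each value put the CSE1 share difference at 4.66 points in place of 4.88. Centring on genes of like abundance and adding 1 RPKM to the shares were chosen after seeing the data. Shares over families by annotation were not run. No paired analysis was possible because MOMT4-0 and WT are 1 library each.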
